A study of Homo sapiens with 6 samples.

Results

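The 10 RNAs described here encode the retinoblastoma (RB) family (*RB1*, *RBL1* and *RBL2*), the LIN subunits of the MuvB core of the DREAM complex (*LIN9*, *LIN37*, *LIN52* and *LIN54*) and the activators that act on the same promoters (*MYBL1*, *MYBL2* and *FOXM1*). They were chosen by gene name from the 60655 genes of the count table, with the higher *MYBL2* counts in the IGF2BP3 immunoprecipitation (IP) already known. For all 10, the contrast between the antibodies is therefore a description with no p-value. All 10 had 1 row each, and 10 of 10 passed the expression filter that left 14507 genes to be tested.

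The samples were 6 RNA immunoprecipitation sequencing (RIP-seq) libraries of WaGa, an established Merkel cell carcinoma (MCC) cell line that carries Merkel cell polyomavirus (MCPyV). The cells were wild type and untreated, and the aim was to find RNAs bound by IGF2BP3. Lysate was incubated with an antibody against IGF2BP3, an RNA-binding protein, in 3 libraries and with IgG as the negative control in the other 3, and both groups carry replicate numbers from 1 to 3. The labels call the replicates independent without naming separate cultures, so the spread between libraries may be partly technical. All values come from 1 cell line.

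RB1, RBL1 (p107) and RBL2 (p130) are pocket proteins, which bind E2F transcription factors and hold down genes needed for DNA replication until cyclin-dependent kinases phosphorylate them. In resting cells RBL1 or RBL2 joins E2F4 or E2F5, a DP protein and MuvB to form DREAM, which represses cell cycle genes. When cells enter the cycle, MuvB leaves the pocket protein and binds MYBL2 and then FOXM1, which activate the genes of mitosis. The large T antigen (LT) of MCPyV binds RB1 through an LXCXE motif, the feature for which this pathway is known in MCC.

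The *MYBL2* RNA differs from most of the family in its share of G and C and in its number of GGAC, the core of the motif at which N6-methyladenosine (m6A), a mark read by IGF2BP proteins, is placed. To show these letters, the 60-base coding window within 1 exon that holds the most GGAC is given for *MYBL2*, for *FOXM1* and, as a member with low GC content, for *RB1* (canonical transcripts of GENCODE release 44 on GRCh38, in the sense of the RNA, GGAC in capitals). The *MYBL2* window lies in exon 2 of 14 at chr20:43673830-43673889 on the plus strand, the *FOXM1* window in exon 9 of 9 at chr12:2858692-2858751 on the minus strand, and the *RB1* window in exon 1 of 27 at chr13:48303976-48304035 on the plus strand.
MYBL2: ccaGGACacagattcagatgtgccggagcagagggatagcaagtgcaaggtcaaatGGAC
FOXM1: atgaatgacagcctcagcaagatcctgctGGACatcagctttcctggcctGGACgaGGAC
RB1: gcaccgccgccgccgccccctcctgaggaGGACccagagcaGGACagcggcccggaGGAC

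The windows are at 53.3%, 55.0% and 78.3% GC, so that of *RB1* is GC-rich although the whole *RB1* RNA is at 37.1%. They hold 2, 3 and 3 copies of GGAC, so no window of *MYBL2* is denser than the best of *RB1*. The difference lies in the whole RNA. *MYBL2* held 29 GGAC in 2668 bases, or 10.9 per kilobase, which was above 99.2% of the tested RNAs with a transcript sequence. *FOXM1* held 6.19 per kilobase (85.1% of tested RNAs were lower) and *LIN37* 6.42 (86.8% were lower). The other members held 2.13 to 3.78, against a median of 3.51 over all tested RNAs. GGAC is itself made mostly of G and C, and *MYBL2*, *LIN37* and *FOXM1* are the members with the highest GC content. A link between GGAC and the IP was not tested. GGAC occurs in 97.96% of tested RNAs. CATA, CATC and CATT, the letters bound most often by IGF2BP proteins in crosslinking studies, ran from 10.1 per kilobase in *MYBL2* to 12.7 in *RBL1*, with a median of 10.8 over tested RNAs, and 99.6% of tested RNAs held at least 1. Only the sense strand was searched, and a match in these letters is not a binding site.

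Library totals ran from 9758759 to 14886414 counts. Replicate 1 of both groups stood apart, with a chi-square per degree of freedom of 16.3 to 19.7 against replicates 2 and 3 of its group, where replicates 2 and 3 differed by 2.13 in IgG IP and 3.06 in IGF2BP3 IP. All 12 Merkel cell carcinoma markers (among them *ATOH1*, *POU4F3*, *KRT20* and *CHGA*) were detected, and their summed level was 5523 to 5753 normalized CPM (read counts scaled to the TMM-adjusted library size) in IgG IP and 5564 to 5717 in IGF2BP3 IP. *KRT14*, *MLANA*, *TYR*, *PTPRC* and *CD3E*, which mark keratinocytes, melanocytes and lymphocytes, were at 0 counts in all libraries. Over each whole marker list, the sum reached at most 1.41 normalized CPM for keratinocytes, 0.87 for melanocytes and 0.60 for lymphoid and endothelial cells. In the keratinocyte list 1 of 3 genes passed the filter. The fibroblast marker *DCN* was at 41.5 to 51.9 normalized CPM, while *COL1A1* and *COL1A2* did not pass the filter. *LT* lay between 263 and 338 normalized CPM.

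*MYBL2* (ENSG00000101057.16; chromosome 20, 43667019 to 43716495, plus strand) encodes B-MYB, the MYB protein that binds MuvB in cycling cells. Its normalized CPM, in the order of the replicate numbers, were 34.4, 38.9 and 35.0 with IgG and 53.1, 54.2 and 56.4 with the IGF2BP3 antibody. The lowest IGF2BP3 IP library lay above the highest of IgG IP. The means were 54.5 ± 1.71 (SD, n = 3) and 36.1 ± 2.47 (SD, n = 3), and the fitted log2 fold change was 0.59 (standard error 0.09), or 1.51-fold. Counts are shares of a library, so more *MYBL2* RNA held by the antibody cannot be told apart from less of other RNA. Within same-numbered pairs the log2 differences were 0.63, 0.48 and 0.69. Counting itself, 744 of all tested RNAs had a log2 fold change as high or higher.

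The thresholds applied to all genes ask for 1.5-fold or more, which is 0.58 in log2, together with a p-value under 0.05 after Benjamini-Hochberg adjustment (edgeR, quasi-likelihood). *MYBL2* lay past both, which is a description, since its values in this contrast were known when the family was chosen. With DESeq2, which the study's methods name, its log2 fold change was 0.58, just under that minimum. After the counts of each library were adjusted for GC content it was 0.40, and after adjustment for transcript length 0.54. It missed a threshold when replicate 1, 2 or 3 of IgG IP was left out (0.56, 0.65 and 0.58). It also missed a threshold without replicate 2 or 3 of IGF2BP3 IP (0.59 and 0.55), and passed without IGF2BP3 IP replicate 1 (0.61). Over all tested RNAs the number called higher was 169 with all libraries. It was 134, 19, 7, 0 and 23 in the fits where *MYBL2* missed, in that order, and 244 where it passed.

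*FOXM1* (ENSG00000111206.13; chromosome 12, 2857680 to 2877174, minus strand) encodes a forkhead factor that MuvB and B-MYB recruit to mitotic genes. Its normalized CPM were 58.2, 66.1 and 60.4 in IgG IP and 65.1, 78.9 and 83.6 in IGF2BP3 IP. The groups overlapped, since IgG IP replicate 2 lay above IGF2BP3 IP replicate 1. The fitted log2 fold change was 0.30 (standard error 0.11), with pair differences of 0.16, 0.26 and 0.47, the smallest in replicate 1. *FOXM1* overlaps *ITFG2* and *RHNO1* on the other strand outside the exons of the canonical transcripts, and these had log2 fold changes of 0.10 and -0.08. Whether the counting used strand is not given in the sources used here.

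*MYBL1* (ENSG00000185697.16; chromosome 8, 66562175 to 66614247, minus strand) encodes A-MYB, a relative of B-MYB known mainly from germ cells. Its normalized CPM were 59.2, 60.8 and 61.0 in IgG IP and 61.0, 55.4 and 58.0 in IGF2BP3 IP. The groups overlapped, and the log2 fold change was -0.05 (standard error 0.08).

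**Figure D1:**
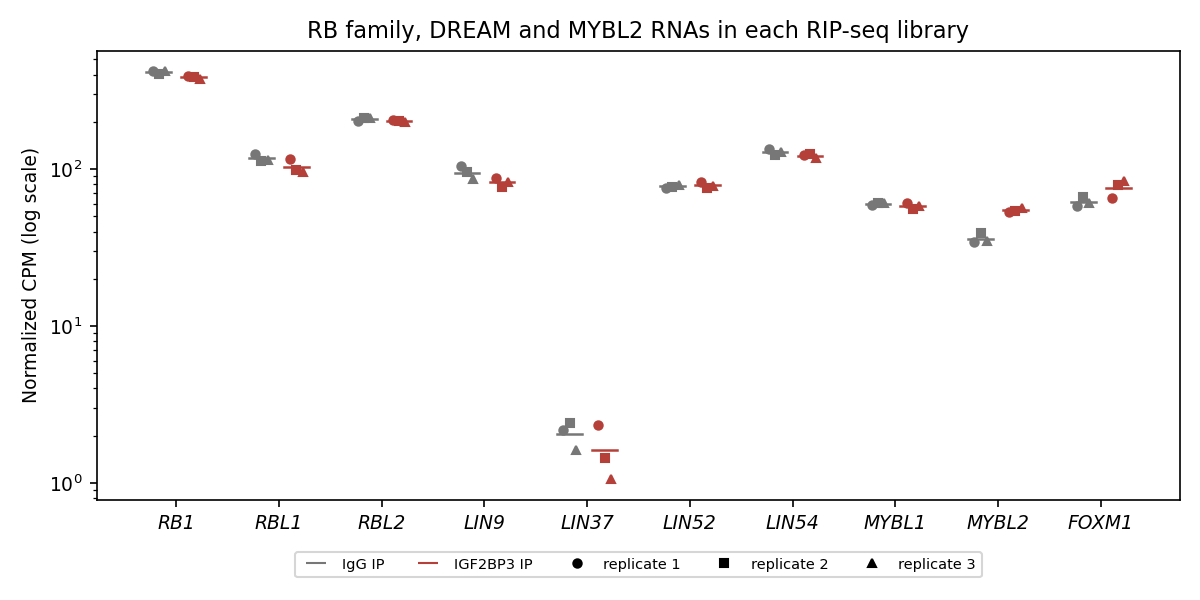
Normalized CPM (log scale) of the 10 RNAs in each of the 6 libraries, with IgG IP in grey, IGF2BP3 IP in red, a symbol for each replicate number and a line at each mean. For *MYBL2* the IGF2BP3 IP libraries sit at 53.1 to 56.4, above the IgG IP libraries at 34.4 to 38.9.

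Ratios of read counts within a library do not depend on how libraries are scaled. The *MYBL2* count was 0.581, 0.641 and 0.574 of the *MYBL1* count with IgG, in the order of the replicate numbers, and 0.871, 0.977 and 0.973 in IGF2BP3 IP. It was also higher relative to *FOXM1* in each IGF2BP3 IP library, at 0.590, 0.589 and 0.579 in IgG IP and 0.815, 0.686 and 0.675 in IGF2BP3 IP. For both ratios the groups were apart, with IGF2BP3 IP higher, and all 6 libraries were below 1. The higher *MYBL2* counts in IGF2BP3 IP were known beforehand, so these ratios restate that contrast and are a description. *FOXM1* over *MYBL1* overlapped between the groups, at 0.984 to 1.09 in IgG IP and 1.07 to 1.44 in IGF2BP3 IP. *MYBL2* made up 22.4% to 23.5% of the summed normalized CPM of the 3 activators in IgG IP and 28.5% to 29.6% in IGF2BP3 IP.

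**Figure D2:**
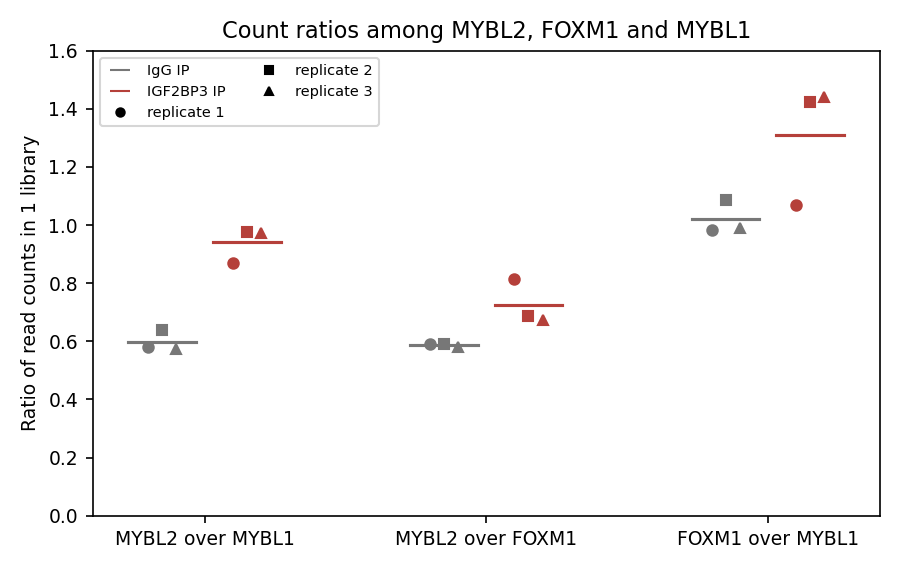
Ratio of the read counts of a pair of RNAs in each library, with IgG IP in grey, IGF2BP3 IP in red, symbols for replicate numbers and lines at the means. *MYBL2* over *MYBL1* is 0.574 to 0.641 in IgG IP and 0.871 to 0.977 in IGF2BP3 IP, while *FOXM1* over *MYBL1* overlaps.

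*RB1* (ENSG00000139687.16; chromosome 13, 48303744 to 48599436, plus strand) encodes the founding pocket protein. Its normalized CPM were 421, 404 and 419 in IgG IP and 392, 386 and 378 in IGF2BP3 IP, so each IGF2BP3 IP library lay below each IgG IP library. The log2 fold change was -0.11 (standard error 0.07), and with the GC correction it was 0.00. *RBL1* (ENSG00000080839.12; chromosome 20, 36996349 to 37095997, minus strand) had 124, 113 and 114 normalized CPM in IgG IP and 116, 99.2 and 96.2 in IGF2BP3 IP. IGF2BP3 IP replicate 1 lay within the range of IgG IP, and the log2 fold change was -0.17 (standard error 0.10). *RBL2* (ENSG00000103479.17; chromosome 16, 53433977 to 53491648, plus strand) had 204, 210 and 213 normalized CPM in IgG IP and 205, 204 and 199 in IGF2BP3 IP. Its groups overlapped at a log2 fold change of -0.05 (standard error 0.07). The canonical transcripts of *RBL2* and *AKTIP*, on the other strand, share 609 exonic bases, and *AKTIP* held 191 to 307 counts against 1883 to 3138 on *RBL2*. *RBL1* likewise shares 213 exonic bases with the antisense RNA AL136172.1, at 9 to 22 counts.

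Within the pocket family, the ratio of the *RB1* count to the *RBL2* count was 1.92 to 2.06 in IgG IP and 1.90 to 1.91 in IGF2BP3 IP. It was lower in each IGF2BP3 IP library, by a gap smaller than the spread within IgG IP. How often ratios of other RNAs separate in this way was not examined. The ratio of *RBL1* to *RBL2* overlapped between the groups. *RB1* made up 55.6% to 56.2% of their summed normalized CPM in IgG IP and 54.9% to 56.2% in IGF2BP3 IP.

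The MuvB subunits hold RBL1 or RBL2 and the activators on DNA. LIN54 binds the CHR element of mitotic promoters, LIN52 contacts both RBL1 or RBL2 and B-MYB, and LIN9 helps to bind B-MYB. *LIN9* (ENSG00000183814.16; chromosome 1, 226231149 to 226309869, minus strand) had 104, 95.4 and 85.9 normalized CPM in IgG IP and 87.2, 76.5 and 82.9 in IGF2BP3 IP. The groups overlapped by IgG IP replicate 3 and IGF2BP3 IP replicate 1, at a log2 fold change of -0.21 (standard error 0.10). *LIN54* (ENSG00000189308.11; chromosome 4, 82909973 to 83012926, minus strand) had 134, 123 and 129 in IgG IP and 123, 124 and 117 in IGF2BP3 IP, with a log2 fold change of -0.08 (standard error 0.08). *LIN52* (ENSG00000205659.11; chromosome 14, 74084956 to 74201493, plus strand) had 75.7, 77.3 and 79.6 in IgG IP and 83.3, 75.6 and 78.0 in IGF2BP3 IP, with a log2 fold change of 0.03 (standard error 0.08). In both the groups overlapped. *THAP9*, which overlaps *LIN54* on the other strand outside the canonical exons, was at 0.00.

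*LIN37* (ENSG00000267796.8; chromosome 19, 35748361 to 35754519, plus strand), which encodes a MuvB subunit needed for repression by DREAM, held only 13 to 36 counts in a library. They gave 2.17, 2.41 and 1.61 normalized CPM in IgG IP and 2.35, 1.44 and 1.06 in IGF2BP3 IP, with overlapping groups and a log2 fold change of -0.36 (standard error 0.35). Its canonical transcript shares 752 exonic bases with AD000671.1 (ENSG00000188223) on the same strand, which is at 0 counts in all libraries. Reads on shared exons may have been left out of both, so the *LIN37* count is uncertain. Its log2 fold change was -0.15 when IGF2BP3 IP replicate 3 was left out, -0.22 for IgG IP replicate 2 and -0.72 for IGF2BP3 IP replicate 1.

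**Figure D3:**
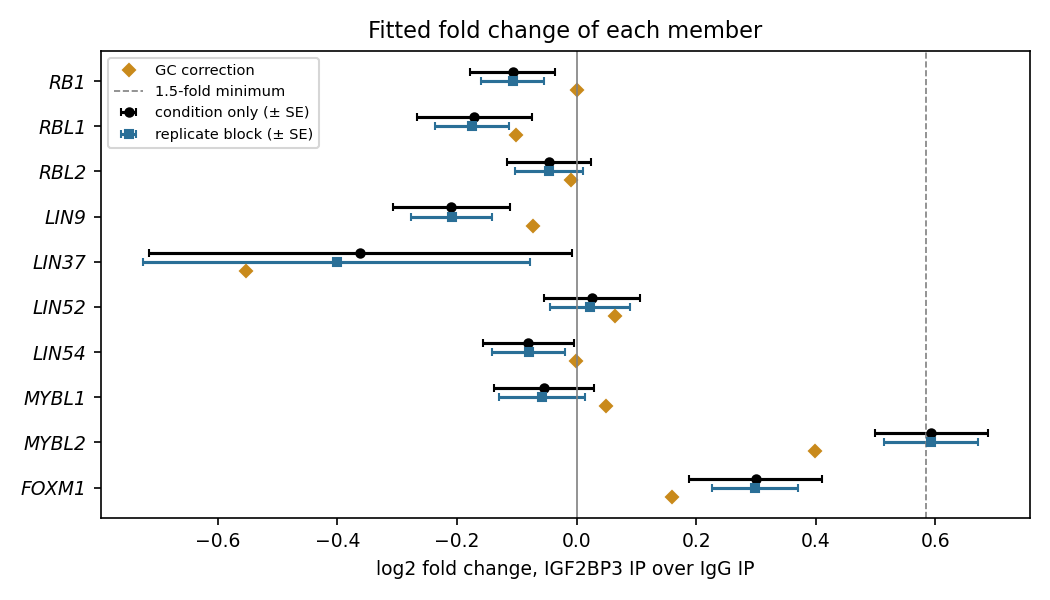
Fitted log2 fold change of IGF2BP3 IP over IgG IP for each RNA, with condition as the only term (black, ± standard error), with the replicate number as a block (blue, ± standard error) and with the GC correction (yellow), and a dashed line at the 1.5-fold minimum. *MYBL2* lies on that line at 0.59, at 0.40 with the GC correction, and *FOXM1* lies at 0.30 and 0.16.

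By the thresholds, 1 of the 10 RNAs (*MYBL2*) was higher in IGF2BP3 IP, where 1.16% of all tested RNAs were, and 0 were lower, where 0% of all tested RNAs were. Over all tested RNAs these were 169 higher and 0 lower in edgeR, or 517 and 15 with the replicate block, and at an unadjusted p-value under 0.05 they were 1410 higher and 449 lower. DESeq2 also gave 0 lower. *MYBL2* was known when the family was chosen, so nothing is read from that count. The groups were fully apart with IGF2BP3 IP higher for *MYBL2* alone (12.0% of tested RNAs), and with IGF2BP3 IP lower for *RB1* alone (8.69%). The median log2 fold change of the 10 was -0.07, beside -0.01 over all tested RNAs. Summed by role, the log2 difference of the mean normalized CPM was -0.10 for the pocket proteins, -0.09 for the MuvB subunits and 0.25 for the activators. The sum of the activators holds *MYBL2*, known beforehand, and *FOXM1* at 0.30, while *MYBL1* was at -0.05. Nothing is read from that sum about the activators as a group.

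GC content moved with the fold change over all tested RNAs. Split into 5 equal groups by the GC content of the canonical transcript, the median log2 fold change was -0.12 in the lowest, then -0.06, -0.00 and 0.08, and 0.18 in the highest. *MYBL2*, at 60.04% GC, lay in the highest group, whose upper quartile was 0.40. *FOXM1*, at 55.7%, lay in the next, with an upper quartile of 0.28. *RB1*, *RBL1*, *LIN9*, *LIN54* and *MYBL1*, at 34.9% to 40.0%, lay in the lowest, whose quartiles were -0.19 and -0.03, and *RBL2* and *LIN52*, at 42.8% and 42.7%, in the next. *LIN37*, at 59.9%, was the exception with a value below 0. With the GC correction, *RB1* and *LIN54* were at a log2 fold change of 0.00, *RBL2* at -0.01, *LIN9* at -0.07, *RBL1* at -0.10 and *FOXM1* at 0.16, all nearer to 0 than without it. *MYBL1* changed sign to 0.05, *LIN52* was at 0.06, and *LIN37* moved further from 0, to -0.55. RNAs in the highest GC group passed the thresholds in 2.35% of cases against 0.173% in the lowest.

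**Figure D4:**
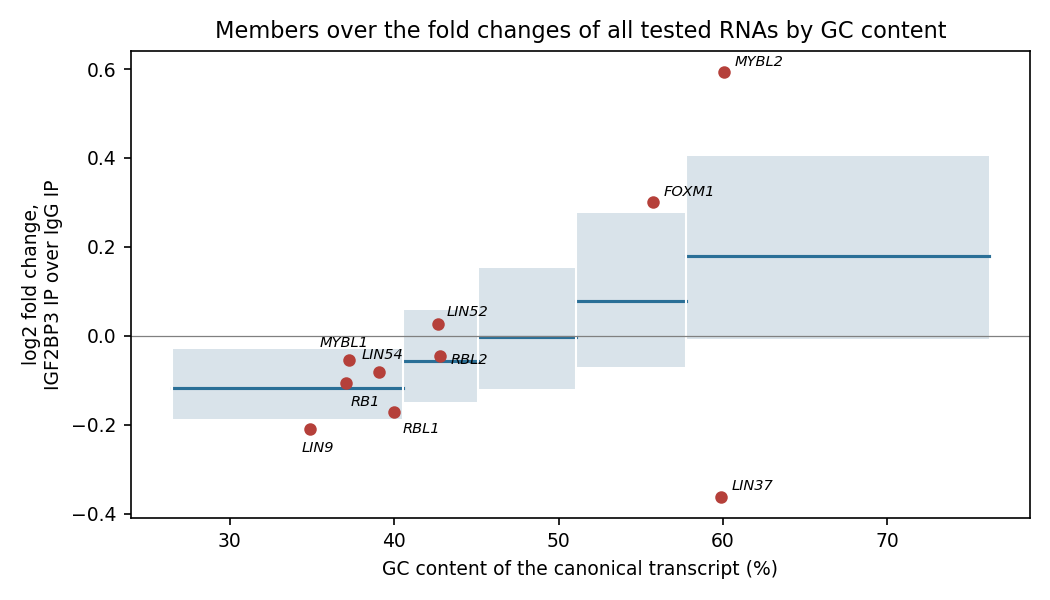
GC content of the canonical transcript (%) against the log2 fold change of IGF2BP3 IP over IgG IP, with the 10 RNAs in red over the median (blue line) and quartiles (band) of all tested RNAs in 5 equal groups of GC content. The medians climb from -0.12 to 0.18, with *MYBL2* at 0.59 above its band and *LIN37* at -0.36 below it.

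Levels of different RNAs were compared as TPM, which are scaled by transcript length, over all 6 libraries. *RB1* was at 101 ± 14.6 TPM (SD, n = 6) and above *RBL2*, at 60.9 ± 7.13, in 6 of 6 libraries, with ranges that did not overlap. *LIN52*, *LIN54*, *LIN9* and *RBL1* followed at 45.9 ± 7.13, 42.2 ± 5.76, 36.1 ± 4.56 and 33.8 ± 3.37, then *FOXM1* at 27.9 ± 7.90 (SD, n = 6 for each). From *RBL2* down to *MYBL1*, the ranges of neighbours overlapped. *LIN52* was above *LIN54* in 5 of 6 libraries, *LIN9* above *RBL1* in 5 and *RBL1* above *FOXM1* in 4. *MYBL2*, at 20.9 ± 6.89 TPM, was above *MYBL1*, at 19.1 ± 3.02, in 3 of 6 libraries and in 0 of the 3 IgG IP libraries. *LIN37* was lowest at 5.30 ± 3.04, the only member under the median of 9.81 TPM over tested RNAs. TPM were lowest in the replicate 1 libraries for most members, as in IgG IP replicate 1 for *RB1*, at 78.3 against 108 and 113 in IgG IP replicates 2 and 3. In normalized CPM that same library was the highest of the 6 for *RB1*, at 421, so its low TPM depends on the measure.

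The replicate number was independent of the choice of members and was tested as a term beside condition (edgeR quasi-likelihood F test). Of the 10 RNAs 0 differed between replicate numbers at an adjusted p-value under 0.05, where 22.9% of all tested RNAs did. The smallest adjusted p-values were those of *RBL1* (0.086) and *FOXM1* (0.097), with unadjusted p-values of 0.024 and 0.028 in the same edgeR test. *RBL1* was highest in replicate 1 in both groups and *FOXM1* lowest in replicate 1 in both. Without IgG IP replicate 1 or 3, *FOXM1* passed (adjusted p = 0.040 and 0.022, same test). With the likelihood ratio test of DESeq2 none passed, and *LIN37* was given no adjusted p-value. *MYBL2* was at an adjusted p-value of 0.75 in edgeR's test.

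By the shape of the values over the 6 libraries, the RNAs most like *MYBL2* were *MYH10*, *CLCN7* and *TOM1L2*. The measure was the root mean square distance in centred log2 CPM, and it was 0.03, 0.04 and 0.04. *MYH10* encodes a nonmuscle myosin heavy chain, *CLCN7* a lysosomal chloride transporter and *TOM1L2* an endosomal adaptor. Their log2 fold changes were 0.56, 0.56 and 0.60. Values near that of *MYBL2* follow from the choice, since the distance was taken over the same 6 libraries. *FOXM1* was the nearest member, at 0.17 and rank 690 among the other tested RNAs, and the next was *LIN52* at 0.30.

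The partners, regulators and target genes of these proteins were read from the same fit in 4 lists with 76 RNAs in all, of which 74 were tested. *CCND1* and *CCND2* did not pass the filter, with at most 4 and 5 counts in a library. By the thresholds 0 of the 74 were higher and 0 lower (edgeR, Benjamini-Hochberg adjusted over all tested RNAs), and with DESeq2 the numbers were also 0 and 0. By an adjusted p-value under 0.05 alone, DESeq2 gave 1 of the 74, in the list upstream of RB. The same rule gave 405 of the 14507 tested RNAs. At an unadjusted p-value under 0.05, 3 were higher, where 9.72% of all tested RNAs were, and 1 was lower, where 3.1% were. The groups were fully apart for 4 upwards and 8 downwards, beside the 12.0% and 8.69% over all tested RNAs. No p-value is given over a list as a whole.

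Among the 6 DREAM partners the median log2 fold change was 0.06, from -0.08 for both *E2F5* and *RBBP4* to 0.12 for *E2F4* and 0.18 for *TFDP2*. RBBP4 is the histone-binding subunit of MuvB, and *TFDP2* encodes a DP partner of the E2F proteins. *RBBP4* was at 1157 to 1176 normalized CPM in IgG IP and 1072 to 1129 in IGF2BP3 IP, and *TFDP2* at 60.2 to 65.0 and 65.8 to 75.5. The groups were apart for both, below for *RBBP4* and above for *TFDP2*.

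Among the 13 tested cyclins, kinases and inhibitors that act upstream of RB, the median was -0.03. *CDKN1C*, which encodes the kinase inhibitor p57, had the highest value, 0.45 (standard error 0.09, adjusted p = 0.055 in edgeR's test), with 52.9 to 57.1 normalized CPM in IgG IP and 70.3 to 81.4 in IGF2BP3 IP. At 62.9% GC it fell to 0.22 with the GC correction. *CDK6* followed at 0.22 on 1.13 to 2.21 normalized CPM. *CDKN2B*, which encodes the inhibitor p15, was lowest at -0.38 (standard error 0.20), and *CCNE2*, which encodes cyclin E2, was at -0.21 (standard error 0.10).

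The 25 G1/S genes bound by E2F and DREAM had a median of 0.03. *TYMS* was at -0.15, and the highest values were those of *MCM3* (0.31) and *CDT1* (0.37). TYMS makes thymidylate, and MCM3 and CDT1 license replication origins. The 30 G2/M genes of MuvB, MYBL2 and FOXM1 had a median of -0.05, from *ECT2* and *CENPA* (both -0.19) to *CDC25B* and *CDC20* (both 0.34). ECT2 acts in cytokinesis, CENPA marks centromeres, CDC25B activates CDK1 and CDC20 activates the anaphase-promoting complex. *CDC20* was at 20.6 to 26.2 normalized CPM in IgG IP and 29.1 to 31.6 in IGF2BP3 IP, with the groups apart.

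With the replicate block and the adjusted p-value as the only threshold, a rule added after the values were seen, 7 of the 74 were higher and 4 lower, beside the 10.9% and 5.23% of all tested RNAs. The higher ones were *CDKN1C*, *MCM2*, *MCM3*, *E2F1*, *CDT1*, *CDC25B* and *CDC20*, at log2 fold changes of 0.25 to 0.45 in that fit. The lower ones were *CCNE2*, *CDKN1B*, *PCNA* and *ECT2*, at -0.21 to -0.14. The higher ones were GC-rich, at 51.7% to 64.3%, and the lower ones were at 34.6% to 45.9%, beside a median of 47.7% over tested RNAs.

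**Figure D5:**
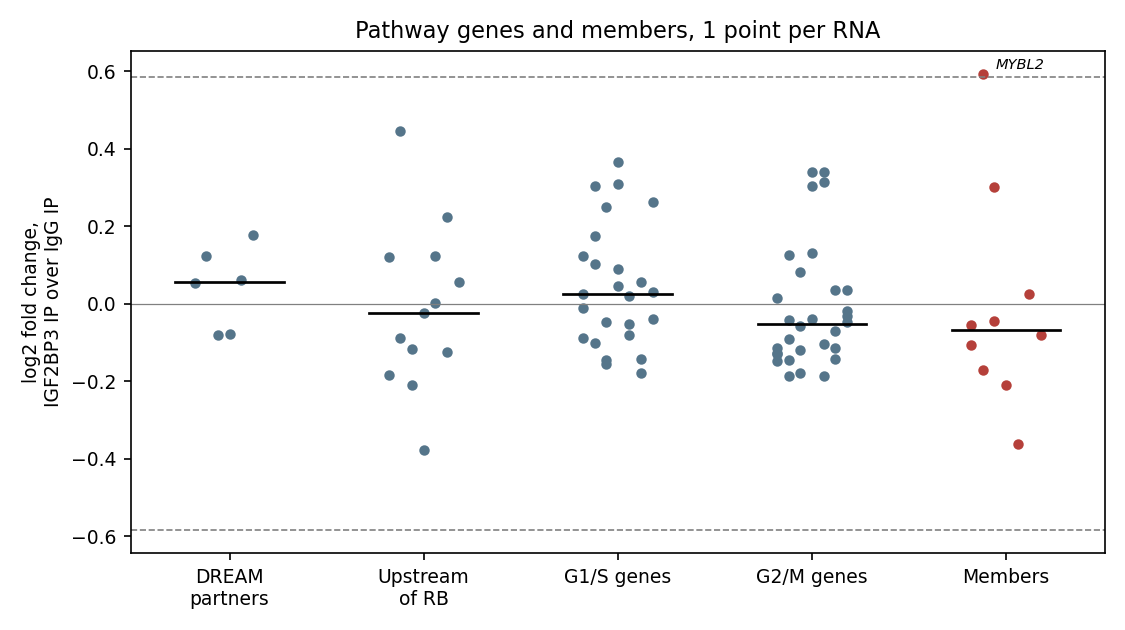
Log2 fold change of IGF2BP3 IP over IgG IP for each tested RNA of the 4 pathway lists (blue) and for the 10 members (red), with a line at each median and dashed lines at the 1.5-fold minimum in both directions. All 74 listed RNAs lie between -0.38 and 0.45, and *MYBL2* is the only point past the minimum.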

How the data were processed

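RNA was measured in 3 IGF2BP3 IP and 3 IgG IP libraries, grouped and numbered by their labels. The authors aligned paired-end reads to GRCh38 with STAR 2.7.9a and quantified them with RSEM on a GENCODE annotation. They deposited whole-number read counts per gene, made by a program not given in the sources used here, and TPM and FPKM values from RSEM. The members and pathway lists were chosen with earlier results of these data known.

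After filterByExpr and TMM normalization, edgeR 4.0.16 in R 4.3.3 fitted the counts of all 14507 genes by quasi-likelihood with a condition term. A standard error is the log2 fold change divided by the root of F. Same-numbered libraries deviated together from their group means (correlations across genes of 0.57, 0.28 and 0.23), so a replicate block was fitted beside it. The cross pairs of replicates 2 and 3 correlated alike (0.28 and 0.27). Alternatives were DESeq2 1.42.0 without and with the block, RLE, upper-quartile and library-total scaling, other filters, log2 TPM with pseudocounts of 1 and 0.1 in limma-trend (version 3.58.1), per-library loess fits (span 0.5) on transcript GC content or length, no fold minimum, and leaving out each library. GC content and sequences came from GENCODE release 44 canonical transcripts, found for 14479 of the 14507 genes. Effective length came from counts and FPKM.

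Named genes were the members, genes overlapping them, listed genes past a threshold, the 2 highest and 2 lowest of each list, and the 3 RNAs most like *MYBL2*. *MCM2*, *E2F1*, *PCNA* and *CDKN1B* were named after their values were seen. Some genes that the rule or the marker lists hold are not reported here. The tests were first tested on simulated data. The fit with condition alone recovered 93.5% of 200 genes simulated as changed, with 16 false calls. The replicate term recovered 85%, with 14 false calls. The simulated condition contrast held no replicate effect, unlike these libraries. Each percentage is over all 200 genes, and recovery was not tested separately for a log2 fold change as small as that of *MYBL2*. Comparisons of the protein sequences were planned and not made, since no protein table was used here.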

Additional observations from a re-analysis of the deposited data

How the results depend on the processing

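*MYBL2* kept its direction under every alternative run. Under some of them it lost its call, by the 1.5-fold minimum, by the adjusted p-value or by both. Its log2 fold change of 0.59 became 0.58 with DESeq2, with the replicate block in DESeq2, with no filter and with RLE factors, and 0.54 when corrected for length. Corrected for GC content it was 0.40, both without and with the replicate block. From TPM in limma-trend it was 0.73 (pseudocount 1) and 0.76 (pseudocount 0.1), with all RNAs at medians of 0.11 and 0.13. It was not past both thresholds in any of these, so 0 members were called. Leaving out 1 library gave 0.55 to 0.65, with 0 to 1 members called. The call held at 0.59 with the replicate block in edgeR, with upper-quartile factors and with at least 10 counts in every library. It also held with library totals, at 0.63, and with no fold minimum. With the block and no fold minimum 2 members were higher and 1 lower, given as a description, and 7 and 4 of the listed genes. Counts for the lists were 0 under the other alternatives. The block in edgeR with the fold minimum changed no other call among members and lists.

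Over all genes, 169 were higher and 0 lower. The replicate block in edgeR gave 517 and 15, and 1587 and 759 with no fold minimum, a rule chosen after seeing the data. DESeq2 gave 281 higher, and with the block 321 and 1. The GC correction gave 80, and with the block 266 and 36. No filter gave 359 and 1, and limma-trend 0 at either pseudocount. Leaving out 1 library gave 0 (without IGF2BP3 IP replicate 2) to 244 (without IGF2BP3 IP replicate 1). It gave 7 when replicate 3 of IgG IP was left out, 19 for replicate 2 of IgG IP and 23 for replicate 3 of IGF2BP3 IP. For the replicate term, the likelihood ratio test of DESeq2 gave 1537 genes against 3320, and leaving out 1 library gave 2252 to 3580, with 0 to 1 members.

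Members near 0 changed sign without a call. The TPM scaling raised the median of all RNAs, and *RB1*, *RBL2* and *LIN54* stayed below that median. With limma-trend at the lower and the higher pseudocount, *RB1* was at 0.034 and 0.034, *RBL2* at 0.025 and 0.024, *LIN54* at 0.030 and 0.029 and *MYBL1* at 0.14 and 0.13. With the GC correction *MYBL1* was at 0.050 (0.046 with the block) and *RB1* at 1.4e-05. *LIN52* was at -0.016 when corrected for length, and at -0.015 to 0.052 when 1 library was left out. The order of the members by mean level over both antibodies was the same with FPKM, with counts per kilobase and with any library left out. Within IgG IP, *MYBL2* was above *MYBL1* in 0 of the 3 libraries, so their order there differs. The values of *LIN37* rest on only 13 to 36 counts in a library and are uncertain.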
